A study of Mus musculus with 4 samples.

Results

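The genes described are 5 transcription factors known from endoderm: Foxa1, Foxa2, Hnf4a, Sox17 and Sox7. They were picked by symbol among the 25209 genes of the deposited matrices. All 5 had UMIs (unique molecular identifiers, which mark single captured transcripts) in every library. Levels were read in day 6 embryoid bodies (EBs), the aggregates in which mouse embryonic stem cells (ESCs) form derivatives of the germ layers, by single-cell RNA sequencing of 3′ transcript ends. The LSD1 KO EBs came from V6.5 ESCs that lack the promoter and first exon of Lsd1 (Kdm1a in the files) after CRISPR/Cas9 editing, and the WT EBs from the unedited V6.5 line. Both were grown with 2i and LIF and then left to differentiate in hanging drops without them. LSD1 is a histone demethylase that takes methyl groups off H3K4. Each genotype has 2 biological replicates of 1 library each, and knockout ESCs were picked as clones. The study's methods name 2 independent clones for RNA-seq, and whether the LSD1 KO replicates here are different clones is not given in the sources used here.

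Foxa1 and Foxa2 are forkhead factors that open closed chromatin at enhancers, and Foxa2 is needed for node, notochord and floor plate as well as for endoderm. Sox17 acts in definitive and extraembryonic endoderm and later in arterial endothelium, and its relative Sox7 is found in parietal endoderm and in early endothelial cells. Hnf4a, a nuclear receptor, drives apolipoprotein and other liver-type genes in visceral endoderm and hepatocytes.

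In the mouse genome build mm9 (gene models of GENCODE M1), Foxa1 lies on the minus strand of chromosome 12 at 58641618 to 58647108, 17991 bases from Ttc6, which runs on the plus strand. Foxa2 is on the minus strand of chromosome 2 at 147868613 to 147872705 and Hnf4a on the plus strand of the same chromosome at 163332544 to 163398646. Sox17 is on the minus strand of chromosome 1 at 4481009 to 4486494 and Sox7 on the plus strand of chromosome 14 at 64562511 to 64569569. The RefSeq promoter table (build GRCm38.p6, 250 bases before to 50 bases after each start) holds 6 windows for 3 of the 5 genes, Foxa1, Foxa2 and Hnf4a. They are shown because all 3 genes lost transcripts together in LSD1 KO EBs. Each strand was searched for motifs of the families that these factors belong to or work beside. The forkhead motif was spelled TGTTTAC. For SOX factors the motif searched was spelled ACAATGG. The letters taken for GATA factors, which act beside them in endoderm, were AGATAA. Lastly HNF4 was searched as CAAAGTCCA, and no window held overlapping matches. The window with a match is printed for each gene, with the matched letters in capitals. The Foxa1 window is at chr12:57546062-57546361 (minus strand), the Foxa2 window at chr2:148045415-148045714 (minus strand) and the Hnf4a window at chr2:163506607-163506906 (plus strand).
Foxa1: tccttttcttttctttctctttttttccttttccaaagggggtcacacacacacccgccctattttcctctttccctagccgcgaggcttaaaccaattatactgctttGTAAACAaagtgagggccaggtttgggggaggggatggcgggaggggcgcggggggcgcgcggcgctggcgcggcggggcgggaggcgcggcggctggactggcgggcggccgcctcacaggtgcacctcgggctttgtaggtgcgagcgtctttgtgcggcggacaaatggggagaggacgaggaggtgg
Foxa2: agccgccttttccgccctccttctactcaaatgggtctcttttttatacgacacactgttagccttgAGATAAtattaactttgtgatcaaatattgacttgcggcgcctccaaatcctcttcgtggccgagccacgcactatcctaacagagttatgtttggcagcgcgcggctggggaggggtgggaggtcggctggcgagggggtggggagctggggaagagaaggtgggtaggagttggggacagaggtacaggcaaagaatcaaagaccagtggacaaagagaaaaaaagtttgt
Hnf4a: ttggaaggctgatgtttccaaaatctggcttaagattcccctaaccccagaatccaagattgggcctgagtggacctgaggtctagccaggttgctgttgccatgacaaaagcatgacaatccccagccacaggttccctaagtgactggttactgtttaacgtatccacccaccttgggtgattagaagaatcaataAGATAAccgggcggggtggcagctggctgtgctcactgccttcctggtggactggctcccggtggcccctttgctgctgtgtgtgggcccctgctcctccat

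The capitals in the Foxa1 window are a forkhead match on the opposite strand, 141 bases before the start. Those in the Foxa2 and Hnf4a windows are GATA matches, 183 and 52 bases before their starts. Of all 32851 promoter windows, 3.65% held the forkhead letters, 3.66% the SOX letters, 11.2% the GATA letters and 0.475% the HNF4 letters. The other 2 Foxa2 windows and the other Hnf4a window held none of the 4. The printed Foxa1 window was 62.3% G and C with 26 CpG dinucleotides, the Foxa2 window 51.7% with 13 and the Hnf4a window 54% with 4, against medians of 52.7% and 7 over all windows.

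Cells were barcodes with at least 500 UMIs and 500 genes, 8738 from LSD1 KO EBs and 11221 from WT EBs. The 4 libraries were close in total UMIs, between 72285943 and 75406512, but the cells of LSD1 KO replicate 2 were fewest and deepest, with 3045 cells and a median of 20304 UMIs against 5693, 4393 and 6828 cells and medians of 11402, 11698 and 9211 UMIs in LSD1 KO replicate 1, WT replicate 1 and WT replicate 2. Pairs of libraries shared 3 to 15 cell barcodes. Kdm1a fell to 1.10 and 0.81 CPM (the UMIs of a gene in proportion to all UMIs of the library, scaled by TMM factors) in LSD1 KO EBs, against 221 and 246 in WT EBs. The tags lie at the 3′ end, outside the deleted stretch, so they measure the transcript and not the deletion.

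All 5 factors fell in LSD1 KO EBs when the UMIs of all cells of a library were summed. Sox17 and Hnf4a fell by the widest margins, Foxa2 by less, and Foxa1 and Sox7 by the least. The test was edgeR's quasi-likelihood test with Benjamini-Hochberg adjustment over the 16953 genes tested, in which 21.6% of genes passed 0.05 as lower and 22.6% as higher. In summed libraries, fewer cells of a type and less RNA per cell cannot be told apart.

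Foxa1 had 4.50 and 3.26 CPM in LSD1 KO EBs, against 18.4 and 13.1 CPM in WT EBs. Foxa2 had 3.75 and 1.96 CPM in LSD1 KO EBs, against 42.2 and 52.0 CPM in WT EBs. For both forkhead genes each LSD1 KO library was below each WT library, with a log2 fold change of −2.02 (SE 0.24, edgeR adjusted p = 0.00282) for Foxa1 and −4.04 (SE 0.32, edgeR adjusted p = 0.000957) for Foxa2. Hnf4a came to 4 and 11 UMIs in LSD1 KO EBs, against 399 and 197 UMIs in WT EBs. These are 0.0566 and 0.168 CPM in LSD1 KO EBs, against 6.41 and 3.09 CPM in WT EBs, again without overlap (log2 fold change −5.40, SE 0.61, edgeR adjusted p = 0.00228).

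Sox17 had 1.58 and 0.581 CPM in LSD1 KO EBs, against 46.4 and 44.8 CPM in WT EBs (log2 fold change −5.38, SE 0.41, edgeR adjusted p = 0.000883). The WT libraries were nearly equal and the LSD1 KO libraries far below both. Sox7 had 0.552 and 0.260 CPM in LSD1 KO EBs, against 3.01 and 2.09 CPM in WT EBs (log2 fold change −2.64, SE 0.42, edgeR adjusted p = 0.00619). Its groups did not overlap either, on 39 and 17 UMIs in LSD1 KO EBs and 187 and 133 UMIs in WT EBs. The 5 calls held under all 9 other settings tried, with the highest edgeR adjusted p of 0.0271 for Sox7 without WT replicate 1. An antisense RNA annotated over Hnf4a, Hnf4aos, had 1.0 and 1.99 CPM in LSD1 KO EBs and 1.29 and 0.895 CPM in WT EBs, a log2 difference of 0.45 that did not pass the test (edgeR adjusted p = 0.399).

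**Figure D1:**
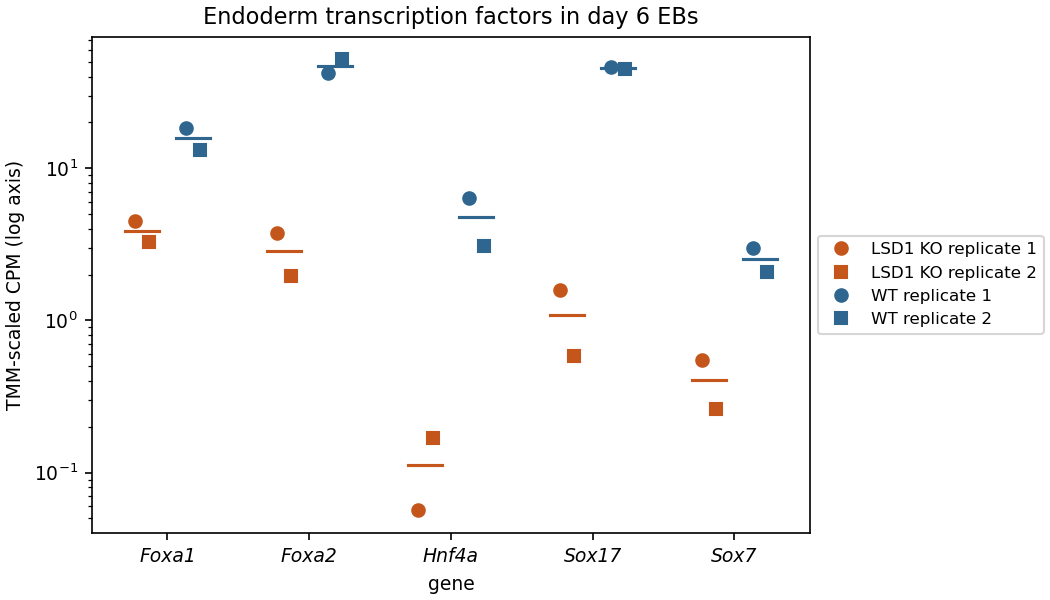
Level of each factor in the summed cells of each library, as TMM-scaled CPM on a log axis, with circles for replicate 1, squares for replicate 2 and a line at the mean of each genotype. For every gene both LSD1 KO points lie below both WT points, with the widest gaps at Hnf4a and Sox17.

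The share of cells that held a UMI was also lower in LSD1 KO EBs for each gene. To compare libraries of different depth, every cell was thinned to 1000 UMIs and shallower cells were left out. Foxa2 was then found in 0.187% and 0.247% of the LSD1 KO cells, against 3.46% and 4.14% in WT. Sox17 was found in 0.205% and 0.035% in LSD1 KO, against 3.15% and 3.95% in WT. Shares of Foxa1 were 0.578% and 0.282% in LSD1 KO cells, against 1.53% and 0.999% in WT cells. For all 5 genes both LSD1 KO shares were below both WT shares, and 2 libraries against 2 cannot give an exact permutation p below 0.33 (two-sided). How many of all genes show such a gap, in shares or in summed levels, was not counted. Hnf4a and Sox7 were too sparse to read levels from after thinning, with Hnf4a in 0.037% and 0.035% in LSD1 KO against 0.429% and 0.253% in WT, and Sox7 in 0.056% and 0% in LSD1 KO against 0.358% and 0.313% in WT. The Sox7 gap narrowed when only cells with at least 2000 UMIs and 1000 genes were thinned. Its shares were then 0.124% and 0.163% in LSD1 KO, against 0.301% and 0.174% in WT.

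Without thinning, Foxa2 was held by 3.0% and 1.9% of cells in LSD1 KO, against 25.5% and 26.9% in WT. Sox17 was held by 1.09% and 0.525% in LSD1 KO, against 22.1% and 19.8% in WT, and Foxa1 by 5.15% and 5.98% in LSD1 KO, against 14.4% and 9.21% in WT. In cells with heart and lateral mesoderm markers in WT EBs, 3.75% and 4.0% held Foxa2, 3.44% and 3.27% held Sox17 and 1.41% and 1.09% held Foxa1, at median depths of 15352 and 9359 UMIs. Whether these cells lack the genes was not tested. The shares in all WT cells were well above those in the heart cells. The WT heart cells give no such comparison for the LSD1 KO libraries, whose free RNA held less of these genes than that of WT. Of LSD1 KO cells in the primitive streak gate, 12.4% and 28.8% held Foxa2. The free RNA in barcodes under 100 UMIs carried 4.39 and 2.45 CPM of Foxa2 in LSD1 KO libraries against 40.1 and 51.5 CPM in WT libraries, close to the level in the cells of each library. For Foxa1 it carried 3.41 and 3.06 CPM in LSD1 KO (4.75 and 3.38 CPM in cells) and 15.7 and 17.5 CPM in WT (18.1 and 12.2 CPM in cells). For Sox17 it carried 0.975 and 0.306 CPM in LSD1 KO (1.67 and 0.603 CPM in cells) and 54.1 and 52.5 CPM in WT (45.5 and 41.6 CPM in cells). The part of free RNA in the low shares of LSD1 KO cells was not tested.

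To see where the 5 genes were found, cells were sorted into 11 gates of 6 marker genes each, none of them one of the 5. A cell joined the gate with most of its markers detected if these were at least 3 and no other gate tied. Gates filled very differently in the genotypes. LSD1 KO libraries had 0 and 1 cell in the visceral endoderm gate, against 119 and 103 in WT, and 0 and 4 cells in the endothelial gate, against 100 and 69 in WT. A count of 0 of 5693 cells allows a share of up to 0.0648% (exact 95% interval, counting error only). The epithelial gate (keratins and claudins) held 5 and 6 LSD1 KO cells and 483 and 588 WT cells. Ungated cells made up 43.6% and 45.7% of all cells in LSD1 KO libraries, against 59.3% and 63.0% in WT libraries. The gate set up for parietal endoderm had no Thbd and Srgn in only 2.34% and 2.99% of its WT cells, so it is called here the Plat and Pth1r gate after the genes that led it (4 and 5 LSD1 KO cells, 171 and 134 WT cells).

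Among WT cells, each factor had its own order of gates. Levels are CPM within the gate, as mean ± SD over 2 libraries, and only gates with at least 30 cells in a library were used. Hnf4a was highest in the visceral endoderm gate at 43.6 ± 9.5 CPM, where 52.9% and 34.0% of cells held it. The Plat and Pth1r gate followed at 11.1 ± 2.9 CPM, without overlap between the libraries of both gates. In 5 gates (anterior neural, axial and floor plate, mesenchyme, neural and neuronal, pluripotent) Hnf4a had no UMI in either library. Foxa1 was also highest in the visceral endoderm gate at 39.2 ± 0.86 CPM, but its range there overlapped that of the Plat and Pth1r gate (31.7 ± 12.6 CPM), which in turn overlapped the epithelial gate (23.1 ± 3.3 CPM). Foxa1 dropped to 1.09 ± 0.27 CPM in heart and lateral mesoderm and to 0.153 ± 0.217 CPM in the pluripotent gate.

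Foxa2 had a different summit. It was highest in the axial and floor plate gate (147 ± 6.4 CPM), which is marked by Shh and Chrd of the notochord and floor plate although Noto was rare there. Second was the gate labelled anterior neural (91.2 ± 15.3 CPM). Both stood clear of the next gates without overlap. The Plat and Pth1r, visceral endoderm, epithelial and primitive streak gates lay between 57.5 and 68.7 CPM, each overlapping the next, although the first (64.1 and 73.3 CPM) stayed above the last (56.5 and 58.6 CPM). Neural (31.9 ± 3.3 CPM) and mesenchyme cells (28.5 ± 5.5 CPM) came next, and endothelial, pluripotent and heart cells were at about 7 to 8 CPM, overlapping one another.

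Sox17 peaked in the visceral endoderm gate (130 ± 32 CPM), followed by the primitive streak gate (104 ± 0.80 CPM) and by the Plat and Pth1r (65.4 ± 12.2 CPM) and epithelial (59.5 ± 4.6 CPM) gates, whose libraries overlapped. The anterior neural gate (43.3 ± 8.9 CPM) and the endothelial gate (39.4 ± 10.8 CPM) came next and overlapped as well, with Sox17 in 47.0% and 27.5% of endothelial cells, while neural, axial, mesenchyme, heart and pluripotent cells were between 2.91 and 7.59 CPM and overlapped. Sox7 stood highest in the endothelial gate, at 57.0 ± 5.3 CPM, against at most 1.02 CPM in any other gate. Of all Sox7 UMIs in WT, 73.3% and 35.3% came from that gate and 15.5% and 51.9% from ungated cells. In the visceral endoderm gate Sox7 had 0.80 ± 0.029 CPM and in the Plat and Pth1r gate 0.527 ± 0.746 CPM. Hnf4a, Foxa1 and Sox17 were thus highest in the visceral endoderm gate, but only part of the UMIs of these genes and of Foxa2 came from that gate. The gate highest in Sox7 was endothelial. In WT the visceral endoderm gate held 32.3% and 22.8% of the Hnf4a UMIs and ungated cells 40.9% and 59.4%. Ungated cells also held 44.4% and 59.0% of Foxa1 UMIs, 43.2% and 60.6% of Foxa2 UMIs and 45.7% and 60.5% of Sox17 UMIs. Of the 2607 and 4305 ungated WT cells, 2369 and 4117 had fewer than 3 markers of any gate. Their cell type is not known, so the part of these UMIs outside endoderm cannot be read from the gates.

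**Figure D2:**
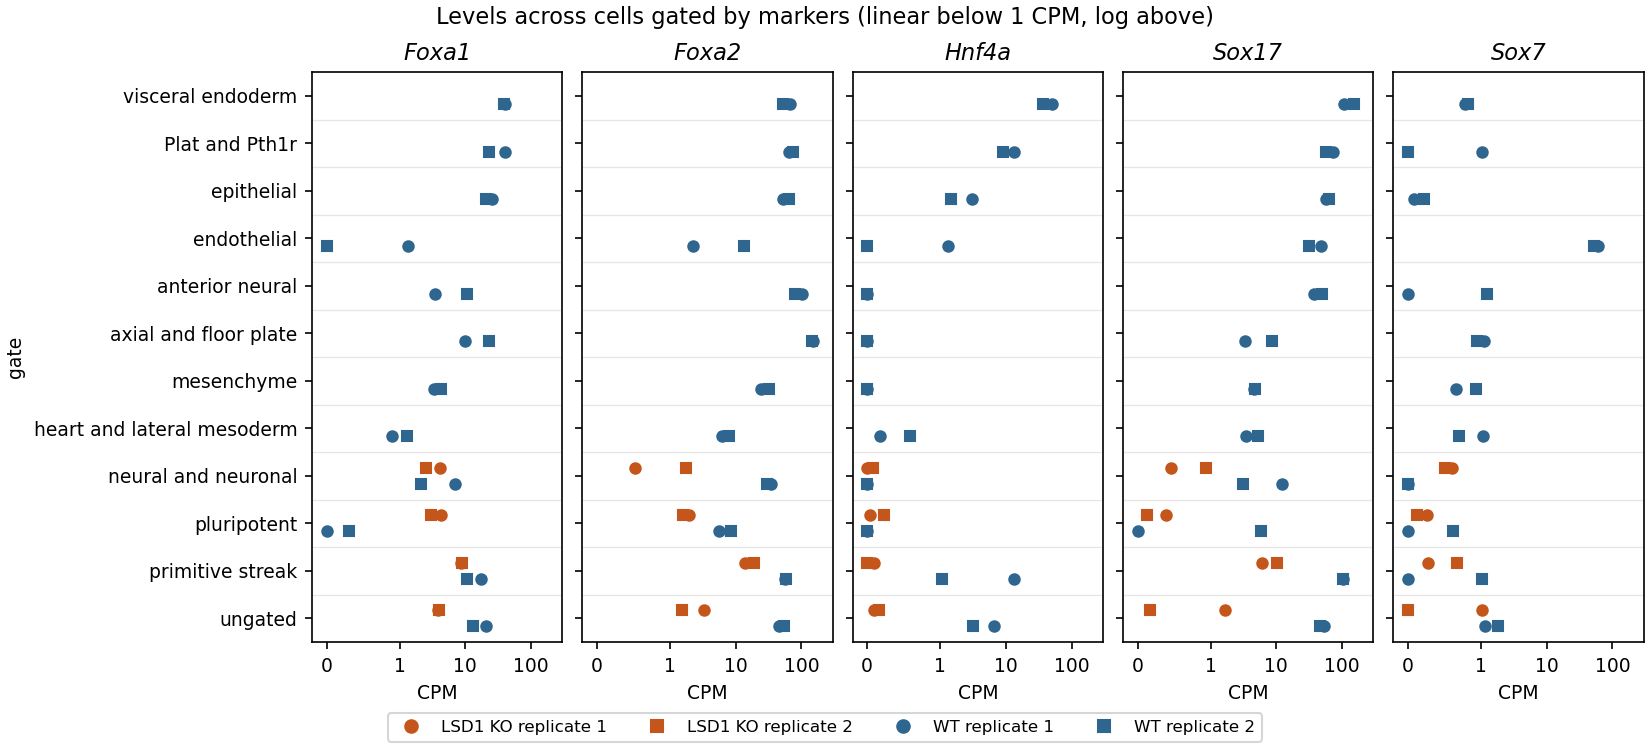
CPM of each factor (axis linear below 1, logarithmic above) in every gate with at least 30 cells in a library, with points for single libraries (LSD1 KO in orange, WT in blue). Hnf4a and Foxa1 are highest in the visceral endoderm gate, Foxa2 in the axial and floor plate gate and Sox7 in the endothelial gate, and LSD1 KO points exist only for the neural and neuronal, pluripotent, primitive streak and ungated cells.

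In LSD1 KO EBs only 3 gates held at least 30 cells in each library, those for neural and neuronal cells (809 and 382), pluripotent cells (1618 and 1188) and primitive streak cells (773 and 59). Within them the primitive streak gate was highest for 3 factors, without overlap with the next group of cells. Foxa2 reached 13.9 and 19.0 CPM there, Sox17 6.02 and 10.2 CPM and Foxa1 8.46 and 8.83 CPM. Elsewhere in LSD1 KO EBs Foxa2 averaged 1.16 to 2.41 CPM, Sox17 0.261 to 0.902 CPM and Foxa1 3.31 to 3.93 CPM, with overlapping libraries for Foxa1 and Foxa2. Hnf4a stayed at or below 0.224 CPM in all 4 groups of cells.

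The 3 gates shared with WT (42 and 64 neural, 40 and 259 pluripotent and 41 and 79 primitive streak cells in WT) allowed a comparison among cells with like markers. The match was not complete. In the primitive streak gate, T was detected in 95.5% and 98.3% of LSD1 KO cells against 36.6% and 41.8% of WT cells, and Mixl1 in 81.4% and 78.0% against 21.95% and 20.3%. LSD1 KO cells in the neural gate held on average 2.62 and 3.05 of the 6 pluripotency markers, against 1.05 and 1.02 in WT cells.

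Foxa2 passed as lower in all 3 gates and Sox17 in both gates where it could be tested. Foxa1 passed as lower in none of them. The Sox17 call in the neural and neuronal gate rested on few WT cells. In the pluripotent gate the WT level of Foxa2 overlapped that of WT heart and lateral mesoderm cells. In the primitive streak gate Sox17 had 5.66 and 9.89 CPM in LSD1 KO cells, against 112 and 112 CPM in WT cells (log2 fold change −4.12, SE 0.24, edgeR adjusted p = 8.6e-07). Foxa2 had 13.1 and 18.5 CPM in LSD1 KO cells of that gate, against 60.4 and 63.4 CPM in WT cells (log2 fold change −2.10, SE 0.24, edgeR adjusted p = 9.4e-05). Neither pair of groups overlapped, and 11.1% of the 9656 genes tested there passed as lower. Foxa1 in the same gate gave a log2 fold change of −0.89 (SE 0.36) that did not pass (edgeR adjusted p = 0.103). The summed level of the 6 visceral endoderm markers was 7.71 and 7.47 CPM in LSD1 KO cells of this gate and 30.8 and 21.98 CPM in WT cells, and its part in these differences was not tested.

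In the neural and neuronal gate Foxa2 had 0.521 and 1.75 CPM in LSD1 KO cells, against 34.9 and 30.3 CPM in WT cells (log2 fold change −4.85, SE 0.50, edgeR adjusted p = 0.00218). Sox17 had 0.447 and 0.918 CPM in LSD1 KO cells, against 12.2 and 3.24 CPM in WT cells, and also fell (log2 fold change −3.55, SE 0.73, edgeR adjusted p = 0.0238), but this call was lost without LSD1 KO replicate 1, LSD1 KO replicate 2 or WT replicate 1 (edgeR adjusted p = 0.225, 0.122 and 0.358). In WT replicate 1 all 14 Sox17 UMIs of this gate came from 1 of 42 cells. WT replicate 2 had 3 Sox17 UMIs, in 2 of 64 cells. Free RNA held 0.975 and 0.306 CPM of Sox17 in LSD1 KO libraries, against 54.1 and 52.5 CPM in WT libraries, and its part in the Sox17 difference was not tested. Foxa1 gave −0.54 (SE 0.62, edgeR adjusted p = 0.624) and turned to 0.61 without WT replicate 1. In this gate 3.99% of the 12998 genes tested passed as lower and 5.19% as higher.

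In the pluripotent gate Foxa2 fell to 1.93 and 1.58 CPM in LSD1 KO cells, against 5.29 and 9.04 CPM in WT cells (log2 fold change −2.20, SE 0.40, edgeR adjusted p = 0.00583), with 10.2% of 14324 genes lower and 11.1% higher. The call was lost without LSD1 KO replicate 1, LSD1 KO replicate 2 or WT replicate 2 (edgeR adjusted p = 0.0781, 0.0884 and 0.268). Without TMM factors, WT Foxa2 in this gate was 5.58 and 8.58 CPM, from 4 and 28 UMIs. WT heart and lateral mesoderm cells, whose shares are given above, had 6.17 and 7.80 CPM. Free RNA held 4.39 and 2.45 CPM of Foxa2 in LSD1 KO libraries, against 40.1 and 51.5 CPM in WT libraries. Its part in this difference was not tested. Foxa1 was the exception among all comparisons, with 4.21 and 2.99 CPM in LSD1 KO cells of this gate against 0 and 0.323 CPM in WT cells (log2 fold change 3.75, SE 0.91, edgeR adjusted p = 0.0195). The WT side held a single UMI against 189 in LSD1 KO, a ratio of 13.9 with an exact 95% counting interval of 2.47 to 553. Leaving out WT replicate 2 ended the call (edgeR adjusted p = 0.195). The free RNA of the LSD1 KO libraries carried 3.41 and 3.06 CPM of Foxa1, close to the level in these cells, and its part was not tested. Ttc6, the neighbour of Foxa1, had 193 UMIs in LSD1 KO cells and 1 UMI in WT cells of the same gate.

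The sizes of these falls were also compared between gates, in 1 fit with the library as a block. Foxa2 fell less in the pluripotent and primitive streak gates than in the neural and neuronal gate, by 2.66 and 2.88 on the log2 scale (SE 0.57 and 0.50, edgeR adjusted p = 0.0144 and 0.00499), where 3.9% and 3.1% of 12046 genes passed. Both calls ended without LSD1 KO replicate 1 (edgeR adjusted p = 0.213 and 0.0539), and the one for the pluripotent gate also without WT replicate 1 or WT replicate 2 (0.0613 and 0.0694). Foxa1 differed between the primitive streak and pluripotent gates by −4.41 (SE 1.01, edgeR adjusted p = 0.0120, with 8.71% of genes passing), and this call ended without LSD1 KO replicate 1 or WT replicate 2 (edgeR adjusted p = 0.210 and 0.0771). For Sox17 no difference between gates passed (edgeR adjusted p of at least 0.794). The Foxa2 difference that involves the pluripotent gate uses a WT level that overlapped that of WT heart cells, as given above.

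**Figure D3:**
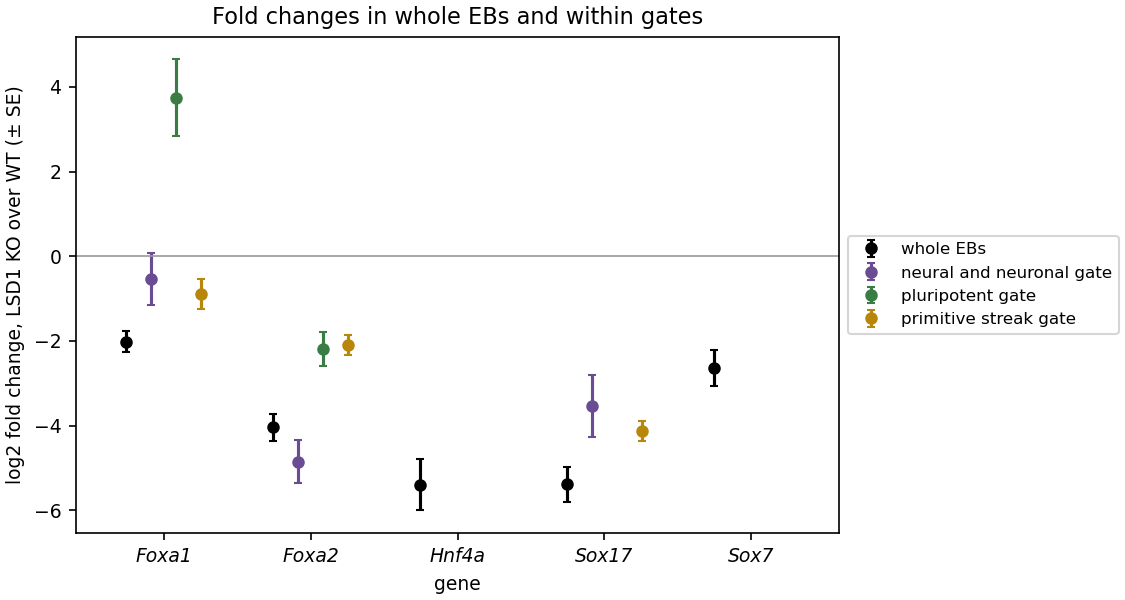
Log2 fold changes of LSD1 KO over WT with their SE for whole EBs and for the 3 gates present in all 4 libraries, with one point where the gene passed the filter on low counts. All whole EB values are below 0, Foxa2 is below 0 in every gate, and Foxa1 in the pluripotent gate is the single value clearly above 0 at 3.75.

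Cells that held several of the 5 genes were common in WT EBs and rare in LSD1 KO EBs. At least 1 of the 5 was found in 503 and 256 LSD1 KO cells and in 1680 and 2667 WT cells. At least 3 were found together in 5 and 3 LSD1 KO cells (0.0878% and 0.0985%), against 387 and 283 WT cells (8.81% and 4.14%). Foxa2 and Sox17 were found together in 16 and 2 LSD1 KO cells, against 572 and 738 WT cells. Each gene alone was also found in a smaller share of LSD1 KO cells, and the counts expected from those shares were not computed. Of the 62 and 16 LSD1 KO cells with Sox17, 25.8% and 12.5% held Foxa2, against 3.0% and 1.9% of all LSD1 KO cells. In WT these shares were 59.0% and 54.6% of cells with Sox17, against 25.5% and 26.9% of all cells. A single WT cell held all 5. WT cells with 3 or more had medians of 27142 and 14732 UMIs, above those of all WT cells (11698 and 9211), and doublets were not called.

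In WT, 7 of the 10 pairs of genes were found together more often than in all cells in both libraries. Of cells with Foxa1, 10.2% and 5.5% also held Foxa2 in LSD1 KO EBs, against 70.9% and 59.0% in WT EBs. Among all cells Foxa2 was held by 3.0% and 1.9% in LSD1 KO EBs, against 25.5% and 26.9% in WT EBs. Cells with Foxa1 thus held Foxa2 more often than all cells did in each library of both genotypes. With every cell thinned to 5000 UMIs the number of pairs above the share in all WT cells was again 7. Foxa2 was then held by 3.51% and 0% of LSD1 KO cells with Foxa1, against 32.8% and 38.5% of WT cells with Foxa1. In all thinned cells these shares were 1.60% and 0.781% in LSD1 KO, against 14.4% and 18.5% in WT. Without thinning, Sox7 exceeded the share in all WT cells only with Sox17. Sox17 was held by 46.8% and 24.5% of WT cells with Sox7, against 22.1% and 19.8% of all WT cells. Only 11.7% and 12.2% of WT cells with Sox7 held Foxa2, below the share in all WT cells (25.5% and 26.9%). Of the 44 and 24 WT cells with both Sox7 and Sox17, 33 and 9 were in the endothelial gate. Of the 1 and 3 such LSD1 KO cells, 0 and 3 were in that gate.

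**Figure D4:**
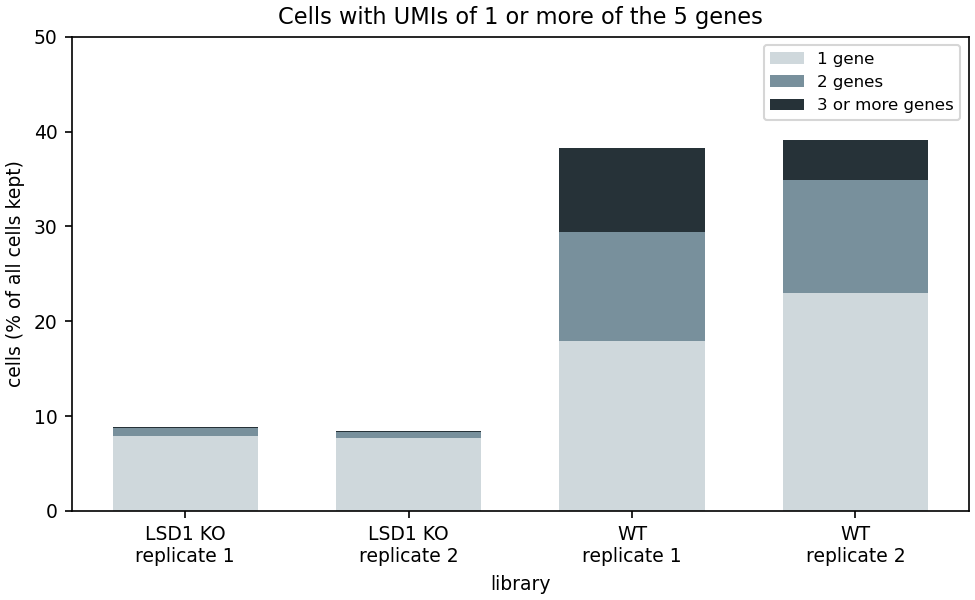
Share of all cells of each library that held UMIs of 1, 2 or at least 3 of the 5 genes, as stacked bars from 0. The 3 or more layer reaches 8.81% and 4.14% in WT libraries and is barely visible in LSD1 KO libraries, at 0.0878% and 0.0985%.

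The UMIs per cell among cells that held a gene differed from gene to gene. The cell with most Sox17 had 7 UMIs in each LSD1 KO library, against 28 and 11 UMIs in WT libraries. A single UMI was all that 92.8% and 86.3% of LSD1 KO cells with Foxa1 had, against 57.1% and 76.2% of WT cells with Foxa1. All 4 and 11 LSD1 KO cells with Hnf4a held 1 UMI, while the highest WT cells held 6 and 4. Foxa2 reached 8 and 18 UMIs in LSD1 KO cells and 12 and 8 UMIs in WT cells, and cells with Foxa2 averaged 1.55 and 2.21 UMIs in LSD1 KO, against 2.34 and 1.81 UMIs in WT, so the groups overlapped.

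The cells with Foxa2 had other partners in the genotypes. These partner genes were chosen after their values were seen and are described without a test. Eomes, a T-box factor of the primitive streak and early endoderm, was found in 87.1% and 86.2% of LSD1 KO cells with Foxa2 (171 and 58 cells), against 14.2% and 13.4% of WT cells with Foxa2 (1120 and 1834 cells). In all cells, Eomes was found in 32.6% and 21.8% in LSD1 KO EBs, against 7.06% and 9.70% in WT EBs. Gsc, a homeobox factor of the anterior streak, had 120 and 79.2 CPM in LSD1 KO cells with Foxa2, against 15.0 and 32.9 CPM in WT cells with Foxa2. Thus the LSD1 KO cells with Foxa2 were rich in streak genes beyond the level of their own EBs (25.1 and 8.01 CPM of Gsc in all LSD1 KO cells).

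Spink1 and Shh were far lower in those cells, as they were in LSD1 KO EBs as a whole. Spink1, a secreted protease inhibitor, had 2.06 and 36.9 CPM in LSD1 KO cells with Foxa2, against 2785 and 1636 CPM in WT cells with Foxa2. Shh had no UMI in LSD1 KO cells with Foxa2, against 22.7 and 42.3 CPM in WT. Over all cells Spink1 had 35 and 146 UMIs in LSD1 KO EBs, against 101520 and 69831 in WT EBs. Shh had 2 and 1 UMIs over all LSD1 KO cells, against 813 and 1513 in WT. The 36.9 CPM of Spink1 in LSD1 KO replicate 2 came from 1.72% of its 58 cells, a single cell. The 1 LSD1 KO cell in the visceral endoderm gate held Foxa2 too, with UMIs of 5 of the 6 markers of that gate. Of LSD1 KO cells with Foxa2, 56.1% and 29.3% were in the primitive streak gate and 15.2% and 32.8% in the pluripotent gate.

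**Figure D5:**
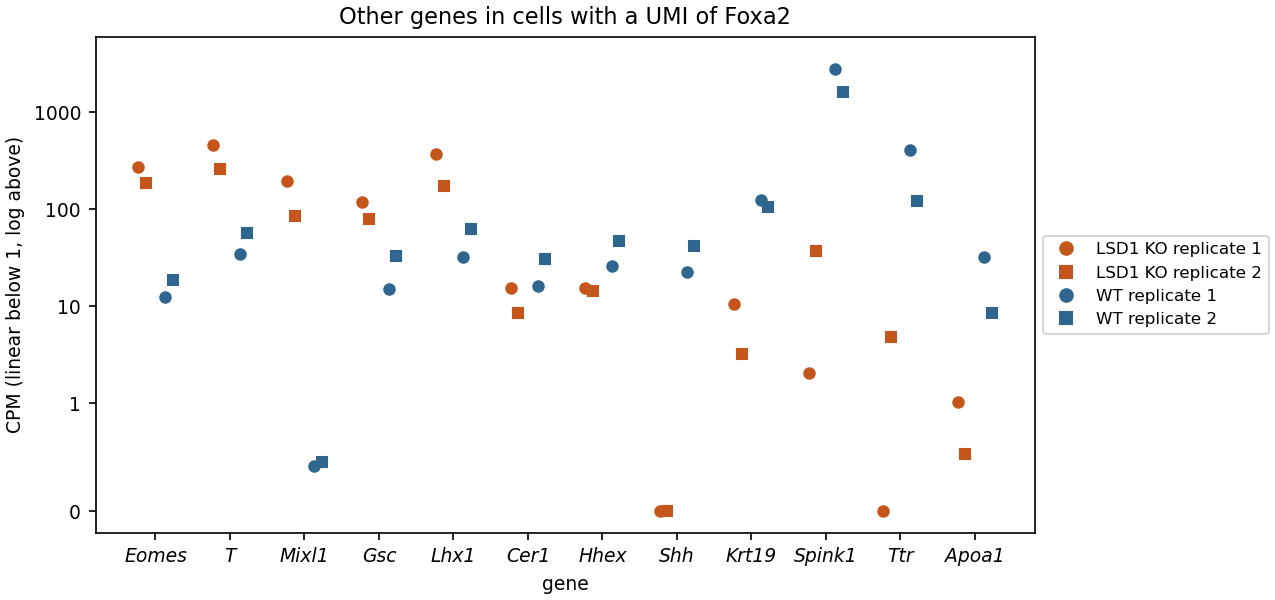
CPM of 12 other genes, summed over the cells with a UMI of Foxa2 in each library, on an axis that is linear below 1 CPM and logarithmic above. Streak genes such as Eomes (276 and 187 CPM in LSD1 KO, 12.5 and 18.6 CPM in WT) are higher in LSD1 KO, while Spink1 (2.06 and 36.9 CPM in LSD1 KO, 2785 and 1636 CPM in WT) and Shh are lower.

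The 16 cells with both Foxa2 and Sox17 in LSD1 KO replicate 1 all held Eomes, Gsc, Lhx1 and Fgf8, and 93.8% held Mixl1 and 62.5% Cer1, a secreted inhibitor made by anterior endoderm. None held Ttr or Spink1, which had only 2 and 35 UMIs over all cells of that library. Among WT cells with both, Spink1 was found in 96.2% and 90.7% and Eomes in 21.2% and 21.4%. LSD1 KO replicate 2 had only 2 such cells, and 10 of 16 and 1 of 2 were in the primitive streak gate.

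The cells with Foxa1 in LSD1 KO EBs mostly held a single UMI of it, at a level in all cells (4.75 and 3.38 CPM without TMM factors) near that of the free RNA (3.41 and 3.06 CPM), whose part in what follows was not tested. Pou5f1, a core pluripotency factor, was found in 67.2% and 75.3% of LSD1 KO cells with Foxa1, against 2.37% and 2.54% of WT cells with Foxa1. In all cells the shares were 54.5% and 59.3% in LSD1 KO EBs, against 4.23% and 7.29% in WT EBs, and cells with Foxa1 were deeper (medians of 15024 and 28367 UMIs in LSD1 KO). Spink1, scarce over all LSD1 KO cells as given above, was found in 0.341% and 1.65% of LSD1 KO cells with Foxa1, against 92.7% and 84.3% in WT.

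Of WT cells with Hnf4a, 98.7% and 98.8% held Spink1, 79.7% and 66.5% held Ttr, a thyroid hormone carrier, and 85.7% and 68.3% held Gata4, a zinc finger factor of endoderm and heart. Of these 237 and 164 cells, 63 and 35 were in the visceral endoderm gate. Spink1 was abundant over all WT cells too (1632 and 1096 CPM), and its share of all WT cells was not set beside these shares. The 4 and 11 LSD1 KO cells with Hnf4a had no Ttr, which had only 2 and 10 UMIs over all LSD1 KO cells. WT cells with Sox7 carried Kdr, the main VEGF receptor, in 83.0% and 81.6% and Cdh5, the endothelial cadherin, in 68.1% and 55.1%. In the 32 and 13 LSD1 KO cells with Sox7 the shares were 25.0% and 46.2% for Kdr and 9.38% and 30.8% for Cdh5. Among all cells outside the endothelial gate, Kdr was found in 3.51% and 2.53% in LSD1 KO EBs, against 14.1% and 11.2% in WT EBs. For Cdh5 these shares were 0.966% and 0.789% in LSD1 KO EBs, against 0.862% and 0.755% in WT EBs. Cells with Sox7 thus held both genes more often than those cells did in each library of both genotypes.

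Across 28 units, each the cells of 1 gate in 1 library, the genes whose log2(CPM + 5) followed each factor most closely were ranked by Pearson correlation over 9246 genes. The units of a library share its depth and cells, so these values are a description. Foxa1 was followed most closely by its neighbour Ttc6 (r = 0.93), then Ctsz, Foxp2, Flrt3 and Rnase4 (r = 0.88). Foxa2 was followed by Kiz (r = 0.91), Tcf7l2, Baiap2l1, Emb and Klk8. Hnf4a was followed by Fgb (r = 0.96), a fibrinogen chain, Vil1 (villin) and Dpp4. Sox17 was followed by Txndc12 (r = 0.89), Ssr4, Tmprss2, Gfpt2 and Prss1, and Sox7 by Ctla2b (r = 0.99), Samsn1, Clec1b, Erg and Ctla2a. Among the factors themselves r was 0.74 for Foxa1 and Hnf4a, 0.70 for Hnf4a and Sox17, 0.69 for Foxa1 with Foxa2 and with Sox17, 0.60 for Foxa2 and Sox17 and 0.35 for Foxa2 and Hnf4a, while Sox7 gave −0.31 to 0.19 with the others.

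Other genes of the same tissues were counted in whole EBs from lists, beside a median log2 fold change of −0.00088 over all genes tested. Of all genes tested, 21.6% passed as lower and 22.6% as higher. Of the yolk-sac and liver effectors 15 of 20 were tested, of which 9 fell and 2 rose, with a median of −4.42. Ttr had 0.0283 and 0.153 CPM in LSD1 KO EBs, against 239 and 90.8 CPM in WT EBs (log2 fold change −10.84, edgeR adjusted p = 0.000845), and Spink1 gave −9.98. The 2 that rose were Apoa2 (log2 fold change 2.86), an apolipoprotein, and Trf (4.50), the iron carrier transferrin, which had 0.990 and 1.97 CPM in LSD1 KO EBs and 0.0964 and 0.0314 CPM in WT EBs. Thus the serum protein genes did not all move together.

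Among endoderm regulators, 17 of 18 were tested, 5 fell and 2 rose, with a median of −0.47, against 21.6% lower and 22.6% higher among all genes tested. Gata6, a zinc finger factor of primitive endoderm, fell by 2.72 on the log2 scale. The Gata6 call was lost without WT replicate 1 or WT replicate 2 (edgeR adjusted p = 0.0957 and 0.0665). Eomes rose by 2.09, with 83.7 and 30.6 CPM in LSD1 KO EBs against 9.39 and 17.4 CPM in WT EBs, a call lost without WT replicate 1 (edgeR adjusted p = 0.103). Pdx1, a pancreas and duodenum factor, rose by 1.87 on very few UMIs (0.424 and 0.397 CPM in LSD1 KO EBs, 0.145 and 0.0785 CPM in WT EBs) and lost its call in 4 of the alternative settings.

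Of the list for definitive endoderm and gut, 11 of 12 genes were tested, 8 fell and none rose, with a median of −2.75. Among all genes tested 21.6% were lower and 22.6% higher. Shh, the ligand of floor plate and gut epithelium, had 2 and 1 UMIs in LSD1 KO EBs, against 813 and 1513 UMIs in WT EBs, a ratio of 0.00131 with an exact 95% counting interval of 0.00027 to 0.00383. Pyy, a gut hormone, fell by 6.75 on the log2 scale. Trh, a releasing hormone, and Epcam, an epithelial adhesion molecule, gave −0.36 and −0.15 and did not pass (edgeR adjusted p = 0.299 and 0.242).

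The basement membrane list of parietal endoderm had 9 of 10 genes tested, of which 8 fell and none rose, with a median of −1.42 (21.6% lower and 22.6% higher among all genes tested). Col4a1 and Col4a2, the collagen IV chains, gave −2.63 and −3.07, Lamc1, a laminin chain, gave −0.60 (edgeR adjusted p = 0.0413), and Nid1, a linker of laminin and collagen, gave −0.27 without passing (edgeR adjusted p = 0.437). The Lamc1 call ended without LSD1 KO replicate 1, LSD1 KO replicate 2 or WT replicate 1 (edgeR adjusted p = 0.0962, 0.0804 and 0.0752) and with library totals only (0.113), and the count of 8 ranged between 6 and 9. All 12 endothelial genes were tested, 8 fell and none rose, with a median of −1.74, beside the same shares over all genes. Erg, an endothelial ETS factor, and Tie1, a receptor, gave −3.95 and −3.45. Etv2, the early inducer of endothelial and blood progenitors, did not fall with the others, at 14.3 and 15.0 CPM in LSD1 KO EBs against 9.80 and 12.3 CPM in WT EBs (log2 difference 0.41, edgeR adjusted p = 0.0775). Sox18, from the same SOX subgroup as Sox7 and Sox17, gave 0.31 (edgeR adjusted p = 0.599) and −0.17 without WT replicate 2.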

How the data were processed

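UMI counts per gene and barcode (raw counts, not normalized) were deposited by the authors for each of the 4 libraries. They were made with Cell Ranger 7.1.0 on mm9, per the labels, which also name Seurat 4.3.0. The study's minimum for a cell (500 UMIs and 500 genes) was applied, and no doublet caller was run. The matrices held no mitochondrial gene.

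The 5 genes and all gene lists were chosen with earlier results of these data known. Counts were summed over the cells of a library, or of a gate in a library, and tested with edgeR 4.0.16 (quasi-likelihood, TMM factors, filterByExpr; R 4.3.3, limma 3.58.1), with Benjamini-Hochberg adjustment over all genes of a fit and a threshold of 0.05. Of 18454 genes with a UMI in at least 10 kept cells, 16953 passed the filter in whole EBs, all 5 genes among them. Between the 2 libraries of a genotype, chi-square over its degrees of freedom was 27.8 in LSD1 KO and 63.1 in WT, far above sampling noise.

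Gates needed at least 3 of 6 markers and, for a level or test, 30 cells in a library. Cells were thinned by sampling UMIs without replacement. Intervals are exact (Clopper-Pearson or conditional, 95%) and cover counting error only. Differences between gates were interaction terms in edgeR with the library as a block. Of each list, the 2 genes of lowest and the 2 of highest fold change were named, and for each factor the 5 genes with the most similar levels (pseudocount 5 CPM, at least 20 CPM in a unit, no gate marker). Some genes that this rule names are not reported here. Ttc6, Hnf4aos and the partner genes in single cells were named after their values were seen.

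Alternatives were DESeq2 1.42.0, library totals only, no filter on low counts, cells with at least 2000 UMIs and 1000 genes, gates of at least 2 or 4 markers, other thinning depths, leaving out each library and a replicate block. The tests and the thinning were tested on simulated data. Python 3.11.15, numpy 2.4.6, scipy 1.17.1, pandas 2.3.3 and matplotlib 3.10.9 were used.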

Additional observations from a re-analysis of the deposited data

Results flagged for a closer look

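The effect of LSD1 loss on Foxa2 differed between gates. The log2 fold change in the pluripotent gate was higher than in the neural and neuronal gate by 2.66 (SE 0.57, edgeR interaction, adjusted p = 0.0144), in a fit where 3.9% of 12046 genes passed. Leaving out LSD1 KO replicate 1, WT replicate 1 or WT replicate 2 ended this call (adjusted p = 0.213, 0.0613 and 0.0694). The difference between the primitive streak and the neural and neuronal gates was 2.88 (SE 0.50, edgeR adjusted p = 0.00499), where 3.1% of genes passed, and ended at an adjusted p of 0.0539 when LSD1 KO replicate 1 was left out.

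For Foxa1 the primitive streak gate minus the pluripotent gate gave −4.41 (SE 1.01, edgeR adjusted p = 0.0120), where 8.71% of genes passed. Without LSD1 KO replicate 1 the adjusted p was 0.210, and without WT replicate 2, which leaves no Foxa1 UMI in the WT pluripotent gate, 0.0771. These alternatives were chosen after seeing the data. The gates were not filled by identical cells in the genotypes (marker shares above), and the part of this in the differences was not tested. WT Foxa2 in the pluripotent gate was at its level in WT heart and lateral mesoderm cells.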

How the results depend on the processing

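The 5 calls in whole EBs held under all 9 alternatives (Foxa1 −2.27 to −1.75, Foxa2 −4.59 to −3.65, Hnf4a −6.34 to −4.78, Sox17 −6.29 to −4.84, Sox7 −3.28 to −2.20, log2). Of the endoderm regulators, 1 gene rose in place of 2 with DESeq2 and with the replicate block, and 1 to 1 with a library left out. Of the endothelial genes, 5 to 9 fell in place of 8 and 0 to 1 rose in place of 0 with a library left out (5 fell without LSD1 KO replicate 2 or WT replicate 1), and 1 rose with library totals only and with the replicate block. With a library left out, 1 to 2 factors passed in the neural gate and 0 to 3 in the pluripotent gate, in place of 2 in each. With a WT library left out, the fold change was −0.62 to 0.19 for Nid1 and −1.08 to 0.61 for Foxa1 in the neural gate (turned without WT replicate 1), and −0.17 to 1.06 for Sox18 (turned without WT replicate 2). With at least 4 markers per gate, the top gate was the same for 3 of the 5 factors, since the axial and endothelial gates then lacked 30 cells per library, and no gate could be tested. With a library left out it was the same for 4 to 5, as Foxa1 was highest in the Plat and Pth1r gate (40.6 CPM) without WT replicate 2. The number of genes lower in whole EBs was 2295 without LSD1 KO replicate 2, against 3661. The cause of these changes was not tested unless stated. Deviations of same-numbered libraries from their genotype means had r = 0.16 over 16953 genes, and with 2 pairs this does not show that the numbers pair the samples. With the replicate number as a block 5 of 5 factors still passed (Foxa1 −2.02, Sox17 −5.46), while Eomes did not (edgeR adjusted p = 0.0528). Depth limited Hnf4a and Sox7, which came to 15 and 56 UMIs in all LSD1 KO cells.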
